A study of Mus musculus with 24 samples.

Results

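The arrays held 165 probes that lactogenic hormones raised in control HC11 cells and that overexpression of the full-length noncoding RNA mPINC lowered in hormone-treated cells. They were picked on the log2 values that the authors deposited. The mean of the siNegative arrays with differentiation had to exceed that of the siNegative arrays without it by at least 2, the mean of the LeGO-1/6 arrays had to lie at least 2 below that of the LeGO-GFP arrays, and the probe had to be well above background on every siNegative +LH and LeGO-GFP array. Of 55681 probes, 22711 met that detection criterion. Among them 340 (1.5%) met the hormone criterion and 531 (2.34%) the overexpression criterion, so the 165 were 48.5% of the first and 31.1% of the second. An annotated symbol was found for 136 of the 165 probes, and these covered 125 protein-coding genes. Both of these contrasts chose the probes, so their values are given below as a description without a test.

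HC11 is a mammary epithelial cell line derived from a mid-pregnant Balb/c mouse. It turns on milk genes when it is given hydrocortisone, insulin and prolactin (lactogenic hormones, LH). The culture methods list insulin in the medium before hormone treatment too, and add prolactin and hydrocortisone to differentiate the cells. Every array held HC11 RNA, from biological duplicates or triplicates of a condition. The 3 siRNA conditions, transfected at 10 nM, were profiled without hormones (-LH, n = 2 each) and with hormones (+LH, n = 3 each): siNegative (a control siRNA), siPINC1/6 (against the splice forms mPINC1.0 and mPINC1.6) and siPINC (against all splice forms, including DCR2, which lacks the conserved regions). The siRNA pools of both knockdowns had 1 siRNA in common. Cells transduced with a LeGO lentivirus were profiled with hormones only (n = 3 each): LeGO-GFP (vector), LeGO-1/6 (mPINC1.0 and mPINC1.6) and LeGO-DCR (a deletion mutant without the terminal exons). The time under hormones is not given in the sources used here for these arrays, nor is whether the transduced cells of a virus were more than 1 line.

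In the mammary gland, prolactin acts through the transcription factor STAT5 and glucocorticoid through its nuclear receptor, and together with insulin they drive alveolar cells from proliferation to milk secretion. PINC (pregnancy-induced noncoding RNA) is a long noncoding RNA of alveolar cells that can associate with the PRC2 histone methyltransferase.

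The arrays differed in one technical respect that touches the results. They lay on 3 slides: slide 1 held all -LH arrays with siNegative +LH replicate 1 and LeGO-GFP replicate 1, slide 2 the other +LH siRNA arrays and slide 3 the other LeGO arrays. Between 24012 and 30726 probes per array were well above background, except on LeGO-1/6 replicate 1 with 35763. The only probe assigned to mPINC itself had a log2 signal of 7.41 and 7.48 on the siNegative -LH arrays, 6.27 and 6.39 in siPINC1/6 and 6.16 and 6.39 in siPINC cells. With hormones it was between 4.15 and 5.25 in all siRNA groups, and it was not well above background on every array. Its +LH mean was 4.87 in siNegative, 5.06 in siPINC1/6 and 4.37 in siPINC cells. Neither knockdown differed from siNegative there (adjusted p = 0.71 and 0.43, limma), so this probe showed no knockdown with hormones. The same probe was 13.4 ± 0.09 (SD, n = 3) in LeGO-1/6, 6.07 ± 0.26 in LeGO-GFP and 6.06 ± 0.12 in LeGO-DCR cells. Which exon the probe reads is not given in the sources used here, so it is no check of the deletion mutant. Markers of the luminal epithelium were well above background on every array for 7 of 8 genes, all but Krt19, and the basal keratins Krt5 and Krt14 were so on every array too. Of the lists for other cells, 2 to 5 of 6 mature luminal, 3 to 4 of 7 immune, 1 to 2 of 4 endothelial and 1 of 4 fat cell markers were above background on all arrays of a group. The immune marker Ptprc was so on all arrays of no group, and Pgr, Tek, Adipoq and Lep on no array. The summed log2 signal of the fat cell list, of which only Fabp4 was above background on all arrays of any group, was 9.66 to 9.74 in LeGO-GFP and 13.2 to 13.4 in LeGO-1/6 cells, and its part in the results was not tested.

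The promoters of 3 members are shown because they hold letters that the hormone-activated factors can bind. Each line is 250 bases before to 50 bases after the annotated start (RefSeq, GRCm38.p6), 5′ to 3′ on the coding strand. Capitals in Csn2 (chr5:87699376-87699675, minus strand) and Pip (chr6:41847299-41847598, plus strand) mark the letters TTCNNNGAA, to which STAT5 can bind, and capitals in Txnip (chr3:96557707-96558006, plus strand) mark the full glucocorticoid receptor element, a palindrome of 2 half-sites.
Csn2: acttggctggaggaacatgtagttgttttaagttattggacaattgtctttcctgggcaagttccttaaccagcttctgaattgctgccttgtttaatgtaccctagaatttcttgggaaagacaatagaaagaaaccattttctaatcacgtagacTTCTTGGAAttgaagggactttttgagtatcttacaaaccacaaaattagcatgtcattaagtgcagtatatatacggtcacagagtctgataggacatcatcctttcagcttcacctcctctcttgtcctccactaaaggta
Pip: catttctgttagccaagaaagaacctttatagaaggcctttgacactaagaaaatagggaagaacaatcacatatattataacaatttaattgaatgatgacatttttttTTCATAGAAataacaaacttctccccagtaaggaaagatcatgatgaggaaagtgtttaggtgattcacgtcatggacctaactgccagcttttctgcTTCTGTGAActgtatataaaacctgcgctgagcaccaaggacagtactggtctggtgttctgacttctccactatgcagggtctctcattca
Txnip: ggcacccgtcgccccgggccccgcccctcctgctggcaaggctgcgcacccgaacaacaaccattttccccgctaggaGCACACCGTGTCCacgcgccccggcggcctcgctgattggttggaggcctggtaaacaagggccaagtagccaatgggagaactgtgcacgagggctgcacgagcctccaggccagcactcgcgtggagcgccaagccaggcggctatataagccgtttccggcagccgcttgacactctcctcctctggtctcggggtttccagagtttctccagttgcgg
Windows were available for 86 member genes. On both strands, TTCNNNGAA lay in the windows of 6 of them (6.98%, against 9.55% of all 27025 genes) and the full glucocorticoid receptor element in 1 (1.16%, against 0.537%). The C/EBP letters TTGCNNAA lay in 10 (11.6%, against 12.2%) and the ETS core AGGAAG in 33 (38.4%, against 38.4%). These are matches of letters in a short window and not binding sites.

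Levels of the named members are log2 signals of the same arrays after quantile normalization, a scale on which changes are larger than on the deposited one. On it, the 165 probes were 2.00 to 11.7 higher with hormones in siNegative cells (median 3.52) and 2.04 to 10.1 lower in LeGO-1/6 than in LeGO-GFP cells (median -4.02). Without hormones 35 of them were not well above background on either siNegative array, and 33 were not on any LeGO-1/6 array. For these a fold is a lower bound, taken against the dimmest signal that counts as above background.

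Proteins of milk and of secretory epithelia stood at both ends of the range. Csn2, which encodes β-casein, had a signal of 1.97 on both siNegative -LH arrays and of 10.98, 10.76 and 11.08 with hormones, at least 106-fold higher. It was 6.00, 6.21 and 6.24 in LeGO-GFP cells and 1.89, 1.92 and 1.90 in LeGO-1/6 cells, at least 6.75-fold lower. The choice of probes fixed the direction on each side. The vector line reached a lower hormone-treated level than the siRNA-transfected cells. Pip, the prolactin-induced protein of secretory epithelia, went from 11.51 and 11.48 to 16.09, 16.03 and 16.17 in siNegative cells, and from 12.77, 13.03 and 13.11 in LeGO-GFP to 4.75, 4.73 and 5.66 in LeGO-1/6 cells. Hormone-treated LeGO-1/6 cells thus held less Pip signal than siNegative -LH cells, which differ from them in transduction and slide too. Wfdc18, a whey acidic protein-like secreted protein, was bright everywhere and fell from 18.87 on each LeGO-GFP array to between 15.11 and 15.20. Quantile normalization gives equal ranks equal values, so the identical LeGO-GFP values do not measure the spread between those arrays. Of 14 milk protein genes listed, Csn2, Pip and Wfdc18 were the members. Among all 14, 8 rose with hormones in siPINC1/6 cells and 7 in siPINC cells (limma, adjusted p below 0.05), where 14.1% and 13.5% of all probes did, and 0 fell.

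**Figure D1:**
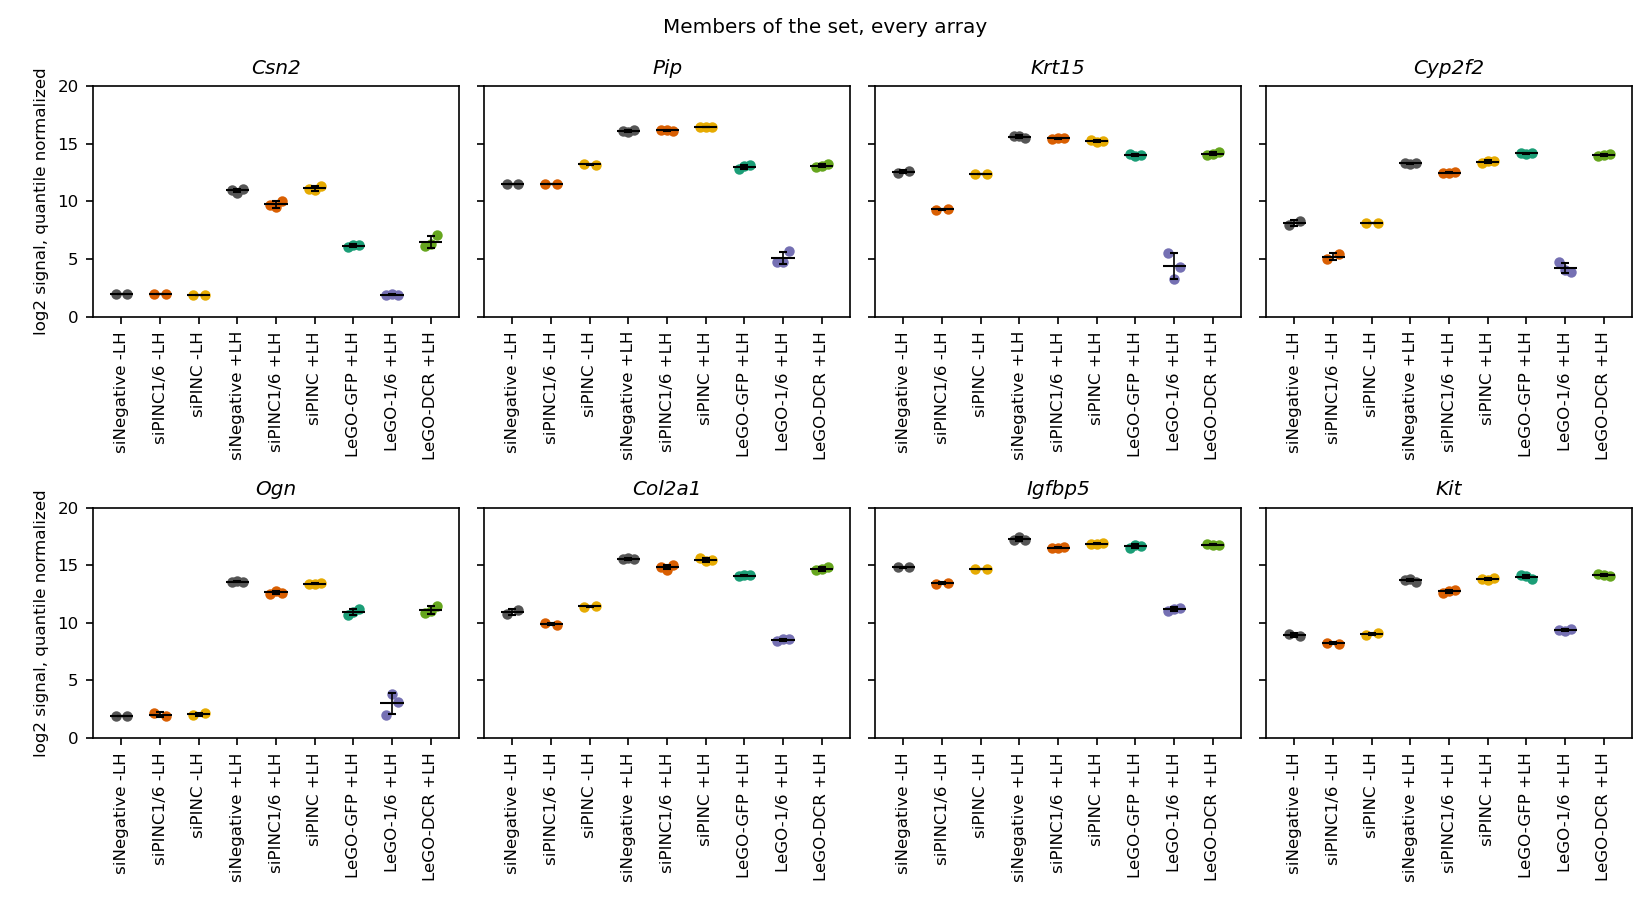
Log2 signal (quantile normalized, vertical axis) of 8 members on every array of the 9 groups; points are arrays, horizontal lines group means and error bars SD. In each panel the LeGO-1/6 arrays lie far below both LeGO-GFP and LeGO-DCR, and all +LH siRNA arrays lie above the -LH arrays of the same siRNA.

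Keratins and detoxifying enzymes included members whose signal in LeGO-1/6 cells was at or near background. Krt15, a keratin of basal and progenitor cells, had 12.48 and 12.65 on the siNegative -LH arrays, 15.64, 15.69 and 15.47 with hormones, 14.08, 13.95 and 14.03 in LeGO-GFP cells and 5.52, 3.30 and 4.32 in LeGO-1/6 cells. Krt23 fell from 12.21, 12.22 and 11.98 to 2.04, 1.88 and 2.15, at least 427-fold. Cyp2f2, a cytochrome P450, fell from 14.21, 14.08 and 14.15 to 4.74, 4.07 and 3.90. The LeGO-1/6 arrays of each of these genes did not come near any other +LH array. The sulfotransferase Sult1a1 was at background without hormones and at 10.43, 10.25 and 10.15 with them, and both of its probes were members. Among 16 keratins listed, Krt15 and Krt23 were the only members.

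A group of 16 members encodes matrix, cartilage and bone proteins or their modifiers. This grouping was made after the values were seen and carries no test. Ogn (osteoglycin), a small leucine-rich proteoglycan, went from 1.88 and 1.89 to 13.51, 13.62 and 13.58, at least 656-fold. Its LeGO-GFP signals of 10.71, 10.91 and 11.20 stood against 2.04, 3.83 and 3.16 in LeGO-1/6. Omd (osteomodulin), encoded next to Ogn, rose at least 232-fold and was at least 53.9-fold lower in LeGO-1/6 cells. Both genes went from background to bright and back. Col2a1, the cartilage collagen, went from 10.77 and 11.12 to 15.52, 15.66 and 15.51, and from 14.03, 14.13 and 14.12 in LeGO-GFP to 8.39, 8.57 and 8.60 in LeGO-1/6. Dcn (decorin), also a proteoglycan of this family, was 5.06 and 4.70 before and 11.74, 11.88 and 11.97 after hormones in siNegative cells. The other 12 were Col9a2, Col27a1, Hapln1, Ucma, Mgp, Papss2, Sparc, Adamts15, Adamtsl2, Gdf5, Chrdl2 and Mia. Dcn was also fixed as a fibroblast marker, and of the 8 genes of that marker list Col3a1 moved with it (-4.12 in LeGO-1/6 against LeGO-GFP), while Zeb1 moved the other way (3.46). The summed fibroblast list was 10.1 to 10.2 in siNegative -LH, 12.3 to 12.4 in siNegative +LH, 13.7 to 13.9 in LeGO-GFP and 10.5 to 10.6 in LeGO-1/6 cells, and Col1a1 and Col1a2 were lower with hormones in siNegative cells (-2.94 and -1.86). The part of other cell types in these values was not tested. In bulk RNA, fewer cells of a type and less RNA per cell cannot be told apart.

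Chemokines, growth factors and receptors formed a further part of the set. Cxcl17 was at 4.15 and 3.60, not above background, on the siNegative -LH arrays and at 11.53, 11.56 and 11.55 with hormones, at least 157-fold higher, and Ccl6 and Ccl9 were members too. Ccl6 had the widest LeGO-1/6 spread of the 3, with 7.19, 3.02 and 3.65, against 10.54, 10.59 and 10.66 in LeGO-GFP cells. The value of 7.19 came from replicate 1, the array with the most detected probes. Kit, the receptor tyrosine kinase of luminal progenitors, rose from 9.06 and 8.85 to 13.75, 13.80 and 13.56 and lay at 9.37, 9.32 and 9.44 in LeGO-1/6 cells. Its ligand Kitl rose by 2.04 and Gas6, a ligand of TAM receptors, by 2.00 in siNegative cells, the smallest changes among named members. Igfbp5, a binding protein of insulin-like growth factors, fell from between 16.50 and 16.79 to between 11.02 and 11.32. In the RefSeq gene order 1 protein-coding gene separates Igfbp5 from Pinc on chromosome 1. Ccn2 (connective tissue growth factor) was 12.81 and 12.54 without and 17.59, 17.63 and 17.50 with hormones, and 15.4 ± 0.05 (SD, n = 3) in LeGO-1/6 cells.

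Transcription regulators and transport genes of the secretory epithelium completed the named members. Tfcp2l1, a grainyhead-like factor, had 2 member probes, and 1 of them went from 9.22 and 8.87 to 13.82, 13.63 and 13.79 and was 8.68, 8.70 and 8.73 in LeGO-1/6 cells. Txnip, a thioredoxin-interacting protein that glucocorticoid induces, went from 9.70 and 9.73 to 12.70, 12.85 and 13.20 with hormones in siNegative cells, and from 12.16, 12.46 and 12.43 in LeGO-GFP to 7.36, 7.60 and 7.46 in LeGO-1/6 cells. The rule fixed these directions, also for the second member probe of Txnip. Txnip was not on the fixed list of 28 glucocorticoid-induced genes. Of that list, Ccn2 and Tfcp2l1 were members. By the brightest probe of each gene, 7 of the 28 met the hormone criterion and 3 the overexpression criterion. Cited4, a transcriptional co-regulator, fell by 4.99, Grhl1 by 2.41 and the epithelial ETS factor Ehf by 2.09 in LeGO-1/6 against LeGO-GFP. Of 28 listed genes of ion transport and tight junctions, Atp1b1, Tjp3, Scnn1a and Cldn8 were members. The sodium channel subunit Scnn1a was 6.92 and 6.79 without and 9.33, 9.41 and 9.32 with hormones, and 6.90, 6.85 and 6.81 in LeGO-1/6 cells. The claudin Cldn8 rose at least 11.9-fold and was at least 17.2-fold lower in LeGO-1/6. Of the lists for milk fat, prolactin and STAT5 signalling, innate defence, cornified envelope, interferon-stimulated genes, proliferation and PRC2, 0 genes were members, although Oas2 and Ifi27l2a, which interferon induces, were in the set.

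Some members neighbour each other in the genome. In the order of annotated protein-coding genes, 27 of the 125 had another member at most 5 genes away, and 10 pairs were adjacent, such as Ogn with Omd, Ccl6 with Ccl9, Wfdc17 with Wfdc18, Bbox1 with Fibin and Rasal1 with Dtx1. The same count was not made for other genes, so these numbers do not say whether members lie closer together than other genes. The 5 glandular kallikreins (Klk1, Klk1b3, Klk1b4, Klk1b5 and Klk1b26) lie in 1 cluster. Their sequences are close to each other, so probes may share signal and the genes are not independent. In all, 9 symbols had several member probes, 20 probes in all. Of the 29 probes without a symbol, 5 read 1 unannotated region on mm9 chr3:96074625-96086375 and 2 read mm9 chr15:36800254-36809571.

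The siNegative rise and the LeGO-1/6 fall were also measured within slides. These arrays are among those that chose the probes, so the values are a description and no independent check. Within slide 1, where only siNegative +LH replicate 1 could be set against the -LH arrays, the rise was 1.82 or more for every member, with a median of 3.50. Within slide 3 the fall was 2.04 or more, with a median of -4.03. Against the siNegative -LH arrays, 22 members, Csn2 among them, have no order, since no array of either group read them as above background. Of the other 143, 102 had a lower mean in hormone-treated LeGO-1/6 cells, and in 88 of them every LeGO-1/6 array lay below both of those arrays. In 29 every LeGO-1/6 array lay above. Arrays of both groups took part in choosing the probes, and the share over all probes was not computed, so these counts are a description. The groups also differ in transduction and slide. Near the hormone threshold, Kitl, Tex12 and an unnamed transcript were just inside, at 2.03 on the deposited scale, and Ppl, Zfp467 and Ccdc13 just outside, at 1.99, 1.99 and 1.98. Near the overexpression threshold, Apod, Oas2 and Ltbp1 were just inside, at -2.01, -2.02 and -2.02, and Tmem116, Matn2 and Itpr1 just outside, at -1.99, -1.98 and -1.98.

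The deletion mutant asked whether a transcript without the conserved ends acts on these probes. In LeGO-DCR cells every member was well above background on all 3 arrays. Each also stood above all 3 LeGO-1/6 arrays, whose low mean the rule required. The share of all probes with this order was not computed. The margin was small for Alas2, with 7.18 on the lowest LeGO-DCR and 7.17 on the highest LeGO-1/6 array. It was 9.33 against 9.04 for D630039A03Rik, so not every member was low on every LeGO-1/6 array. No member differed from LeGO-GFP at an adjusted p below 0.05 (limma), against 0.0557% of all 55681 probes. Only Col2a1 and Apod had an unadjusted p below 0.05, the methods' t-test called 0, and a different background correction called Col2a1. The LeGO-GFP and LeGO-1/6 arrays took part in choosing the probes. The differences ran from -0.61 to 0.57 with a median of 0.05, where that over all probes was 0.00. For 148 of the 165 the 95% interval of the difference lay within 1 log2 unit of 0. The interval reached below -2 for Ccl6, Alas2, D630039A03Rik and an unnamed transcript. The fit took in all LeGO arrays, so the LeGO-1/6 spread entered these intervals and the test. That spread was wide for Ccl6 (7.19, 3.02 and 3.65) and Alas2 (1.89, 1.94 and 7.17). Ccl6 was 10.54, 10.59 and 10.66 in LeGO-GFP and 10.54, 10.55 and 10.81 in LeGO-DCR cells. Alas2 was 7.66, 7.47 and 7.26 against 7.32, 7.18 and 7.46. Their bounds thus do not reflect the compared arrays alone. The unnamed transcript also varied within LeGO-GFP (7.298, 9.101 and 7.333). Csn2 was 6.10, 6.25 and 7.09 in LeGO-DCR cells, Pip 12.94, 13.10 and 13.24, and Col2a1 14.54, 14.65 and 14.80. Col2a1 alone of these had no overlap with its LeGO-GFP arrays, 0.57 higher with an SE of 0.09. Over the whole array 31 probes passed.

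**Figure D2:**
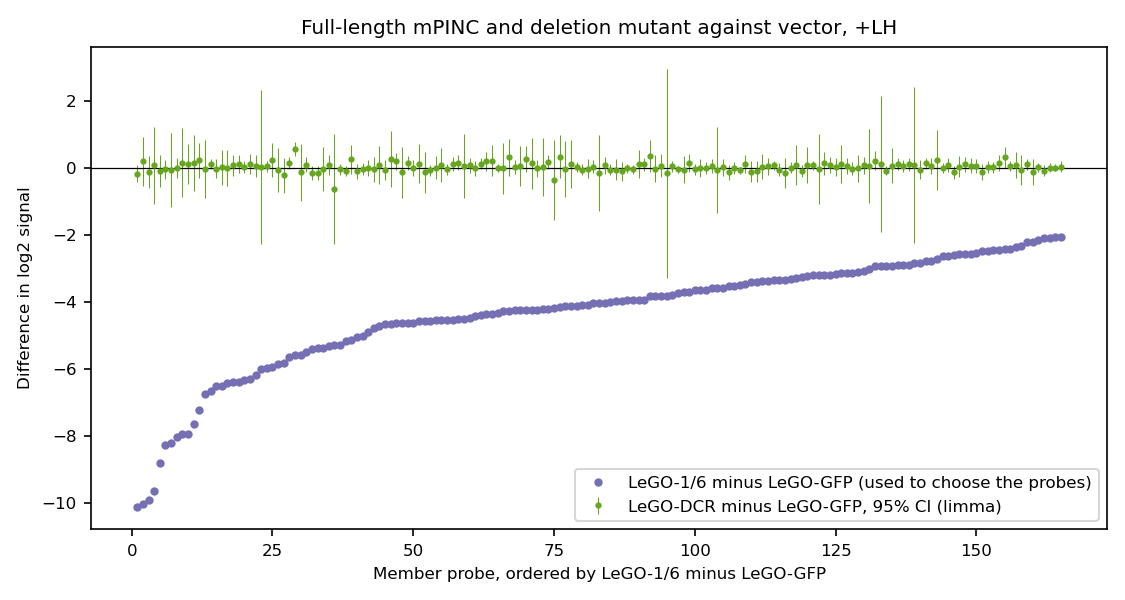
Difference in log2 signal from LeGO-GFP (vertical axis) for each of the 165 members, ordered along the horizontal axis by the LeGO-1/6 value; purple points are LeGO-1/6, green points LeGO-DCR with 95% intervals. The purple points run from -10.1 to -2.04 by the choice of the probes, while the green points lie between -0.61 and 0.57.

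The knockdown arrays measured the hormone response on arrays that the choice of probes had not used. All 165 members rose with hormones in siPINC1/6 cells, where 14.1% of all 55681 probes and 30.5% of the 22711 detected probes did, and all 165 rose in siPINC cells, where 13.5% and 29.2% did (limma, adjusted p below 0.05). The median rise was 3.58 in siPINC1/6 and 3.54 in siPINC cells, and 0.01 over all probes in each. Among the 114 members above background on both siPINC1/6 -LH arrays the rise was 1.44 to 7.28, the highest for Cyp2f2. Among the 132 above background on both siPINC -LH arrays it was 1.15, for the secreted Wnt inhibitor Wif1, to 6.69, for Dcn. The other members were not above background on every -LH array of that siRNA. Ogn, not above background on any -LH array, was at least 326-fold higher with hormones in siPINC1/6 and at least 628-fold higher in siPINC cells (adjusted p = 5.8e-08 and 1.3e-07, limma). Omd was at least 142-fold and at least 138-fold higher, and Csn2 at least 44.2-fold and at least 130-fold. Dcn was at least 207-fold higher in siPINC1/6 cells. The remaining 175 hormone-raised probes, which LeGO-1/6 did not lower by 2, rose in 174 and 175 cases, with medians of 2.77 and 2.69. The -LH arrays of both knockdowns were on slide 1 and their +LH arrays on slide 2. With slide as a term in a fit of all 24 arrays, 160 members rose in each.

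The size of the hormone response differed between the knockdowns for 40 members, such as Krt15, Pgm5 and Klk1b4. The test of this difference uses none of the arrays that chose the probes, and slide does not enter it. It passed for 40 of 165 members, 30 with the larger and 10 with the smaller response in siPINC1/6 cells, against 1.17% of all probes and 2.18% of the detected ones (limma). Of the other 175 hormone-raised probes, 14 had the larger and 9 the smaller response in siPINC1/6 cells. The count of members was 19 to 37 when each array was left out in turn. It was 19 to 22 without any 1 of the 6 +LH arrays of these siRNAs. The 75th percentile normalization gave 19 and the deposited values 14. The largest difference was that of Krt15, 3.33 ± 0.09 (SE, adjusted p = 9.3e-05), which rose from 9.28 and 9.32 to 15.40, 15.45 and 15.49 in siPINC1/6 cells and from 12.38 and 12.39 to 15.28, 15.13 and 15.20 in siPINC cells. The Krt15 groups differed without hormones and came together with them. Pgm5, of the phosphoglucomutase family, behaved alike, from 4.85 and 4.84 against 7.63 and 7.87 without hormones to 11.12, 11.05 and 10.97 against 11.12, 11.01 and 11.01 with them (difference 2.91 ± 0.12, adjusted p = 0.0014). Its second probe had 3.02, which did not pass. In Cyp2f2 the difference was 1.98 ± 0.18 (adjusted p = 0.0062), from 4.998 and 5.41 against 8.13 and 8.15 without hormones. Scrg1 (1.79), Pip (1.40), Gas6 (1.37), Dcn (1.30), Mia (1.25), Mgp (0.95), Igfbp5 (0.88), Kitl (0.69), Wfdc18 (0.68) and Tfcp2l1 (0.55) passed in the same direction. All 30 had the lower -LH level in siPINC1/6 cells, by 0.58 to 3.08. Their +LH differences ran from -0.95 to 0.58, so passing with the larger response largely fixed that lower -LH level. Of the 30, 4, Dcn included, were not above background on any siPINC1/6 -LH array, so their sizes hold a part with no order.

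Kallikreins and a few secreted or surface proteins lay on the other side. Klk1b4 and Klk1b26 were above background on 2 of 3 siPINC1/6 +LH arrays. The response of Klk1b4, Klk1b26 and Klk1b5, secreted serine proteases, was smaller in siPINC1/6 cells by 2.96, 2.33 and 1.91 (adjusted p = 0.041, 0.023 and 0.041). None of them was above background on any -LH array, so these sizes hold a part from signals that have no order, and they give no rank. Of the difference for Klk1b4, only -1.46 came from the +LH arrays and the rest from such -LH signals. Klk1b26 was 5.51, 5.44 and 5.12 in siPINC1/6 +LH cells and 7.19, 7.36 and 6.78 in siPINC +LH cells. The groups did not overlap. The chemokine Ccl9 (-1.38), Tspan33 (-1.27) and Ltbp1 (-0.73) also passed, and these were above background on all -LH arrays. The other 4 had no symbol, among them 2 of the mm9 chr3:96074625-96086375 region and 1 of mm9 chr1:73004154-73007481.

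**Figure D3:**
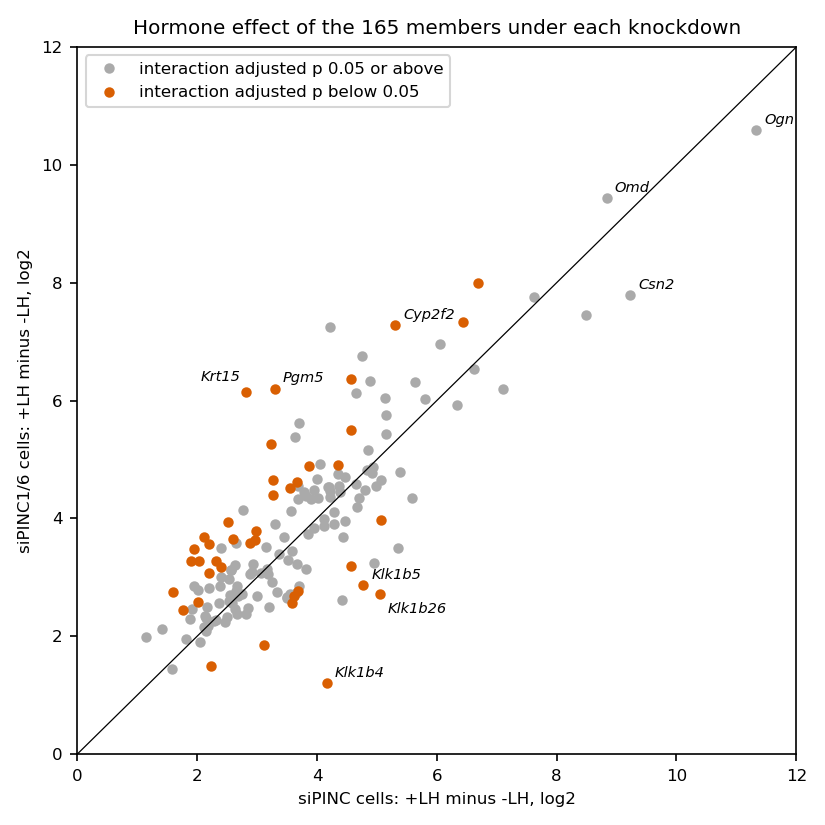
Hormone effect (+LH minus -LH, log2) of each member in siPINC cells (horizontal axis) and siPINC1/6 cells (vertical axis), with the line of equality; orange points passed the test of the difference. All 165 points lie above 0 on both axes, and Krt15, Pgm5 and Cyp2f2 lie above the line while Klk1b4, Klk1b26 and Klk1b5 lie below it.

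Set against each other directly, siPINC1/6 cells mostly had the lower levels. With hormones 132 of 165 members were lower in siPINC1/6 than in siPINC cells. The median difference was -0.30, against -0.01 over all probes and -0.20 over the other 175 hormone-raised probes. The share of all probes that were lower was not counted, with or without hormones. Of the members, 47 passed as lower and 1 as higher, against 0.465% and 0.438% of all probes and 1% and 1.01% of the detected probes (limma). Leaving out each array gave 20 to 41, and 20 to 29 without siNegative replicate 1, siPINC1/6 replicate 1 or 2, or any siPINC array. The 75th percentile normalization gave 23, the deposited values 25 and the methods' t-test 2. Among the other 175 hormone-raised probes 35 were lower and 3 higher. A probe without a symbol had the largest fall (-1.89), and all 5 kallikreins passed, from -1.31 to -1.75. Csn2 was 9.69, 9.48 and 10.06 in siPINC1/6 and 11.1 ± 0.19 (SD, n = 3) in siPINC cells, a difference of -1.38 ± 0.17 (adjusted p = 0.021). Its groups were separate by more than either spread. Krt23 (-1.19), Kit (-1.10), Cldn8 (-0.99), Cyp2f2 (-0.95), Ogn (-0.77), Tjp3 (-0.66), Lrrc26 (-0.65) and Ccl6 (-0.54) passed in the same direction. The purinergic channel gene P2rx5 passed in the other direction, 0.57 higher at 8.04, 7.995 and 7.84 against 7.42, 7.42 and 7.33. Without hormones, with n = 2, 134 members were lower in siPINC1/6 cells. The median difference was -0.57, against 0.00 over all probes and -0.20 over the other 175 hormone-raised probes, of which 1 passed as lower. Only 4 members passed: Krt15 (-3.08), Pgm5 (-2.91), Atp6v1b1, a proton pump subunit (-1.73), and Pip (-1.70). Each had an adjusted p of 0.048, against 0.0144% of all probes that were lower. Leaving out 1 array gave 4 without siPINC replicate 1, 1 without siPINC1/6 replicate 1 and 0 without any other. The methods' t-test, the 75th percentile normalization and the deposited values gave 0, and normexp background correction 55.

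**Figure D4:**
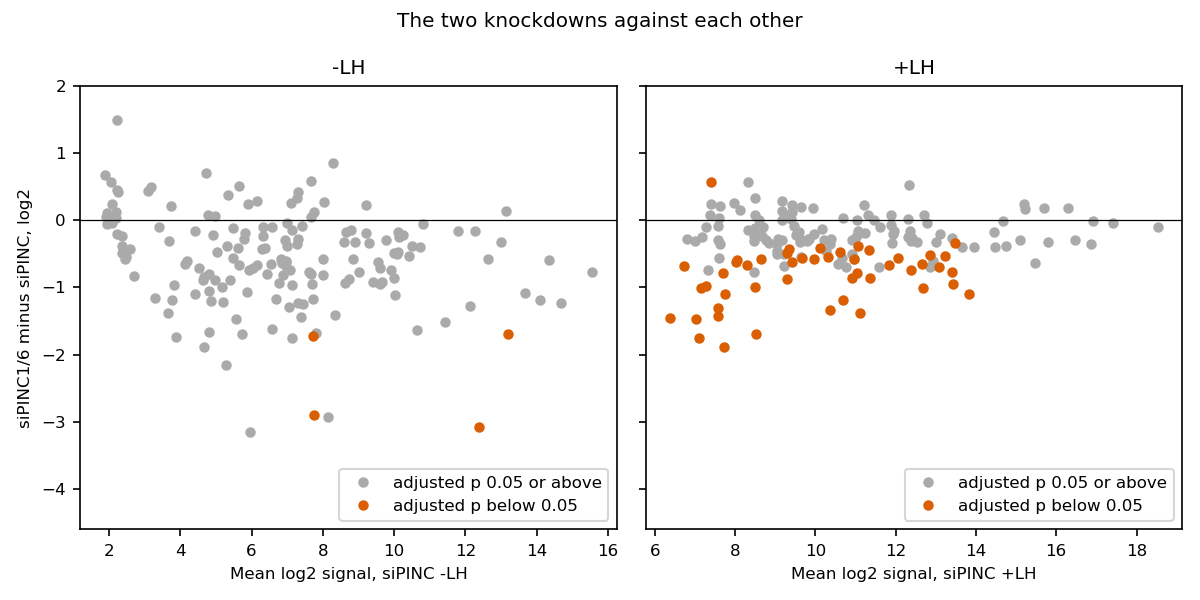
Difference siPINC1/6 minus siPINC in log2 signal (vertical axis) against the mean siPINC signal (horizontal axis) for the 165 members, without hormones (left) and with them (right); orange points passed the test. Most points lie below 0 in both panels, 134 on the left and 132 on the right, and the right panel holds 48 orange points against 4.

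Against siNegative cells, whose arrays chose the probes, siPINC1/6 cells with hormones were lower for 71 members and higher for 4, against 1.75% and 2.09% of all probes (limma). Of the other 175 hormone-raised probes, 83 were lower and 4 higher, so the lower levels were not particular to the members. The methods' t-test called 34 members. Among the members, a probe without a symbol (-2.15), Klk1b26 (-2.07), Klk1b5 (-1.94) and Klk1b4 (-1.74) fell most. Ogn (-0.94), Kit (-0.99), Igfbp5 (-0.74) and Csn2 (-1.20) were among the rest. Oas2 (1.59), Fam180a (0.73), Cyp4b1 (0.53) and Tex12 (0.47) rose. Oas2 was 8.69, 8.13 and 7.97 in siNegative and 10.01, 9.67 and 9.88 in siPINC1/6 cells, and 9 of the 13 listed interferon-stimulated genes on the array rose in the same comparison. In siPINC cells 8 members were higher and 11 lower, against 0.551% and 0.129% of all probes, and 2 to 12 passed when any 1 of the 9 +LH siRNA arrays was left out, 2 with the 75th percentile normalization and 1 by the methods' t-test. Of the other 175 hormone-raised probes, 3 were higher and 12 lower. Among named members that passed, Krt23 (1.19), Atp10b (0.78) and Cldn8 (0.70) were highest. Ptgds, prostaglandin D synthase (-1.05), Omd (-0.86) and Chrdl2 (-0.82) were lowest. Krt23 was 10.79, 10.58 and 10.71 in siPINC cells against 9.46, 9.40 and 9.65, with no overlap. siNegative replicate 1 of this comparison lay on slide 1 and the rest on slide 2.

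Without hormones, siPINC1/6 cells were lower than siNegative cells for 37 members and higher for 4, against 1.44% and 1.51% of all probes (limma). Krt15 (-3.27), Cyp2f2 (-2.90) and Scrg1 (-2.88) fell most, and Ccl9 (2.07), Tspan33 (1.35), Ltbp1 (0.95) and 1 of 3 probes of Ntrk3 rose. The count was 0 to 5 when any of the 6 -LH arrays was left out. It was 14 with the 75th percentile normalization and 0 by the methods' t-test. Of the other 175 hormone-raised probes, 22 were lower and 8 higher (limma). In siPINC cells 0 members passed at an adjusted p below 0.05 (limma), as did 0% of all probes, with 68 members at an unadjusted p below 0.05 and 0 by the methods' t-test. Scrg1 was 10.62 and 10.66 in siPINC and 11.97 and 11.80 in siNegative cells without hormones.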

How the data were processed

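RNA of 24 HC11 cultures was hybridised to one-colour Agilent mouse 8x60K arrays. The authors deposited scanner output (Feature Extraction 11.0.1.1, probe positions on mm9 per the file headers) with processed intensity values, and a series matrix of log2 values. The matrix ranks matched median signal minus local background on every array (lowest Spearman correlation 1.00), the methods name quantile normalization without saying how this matrix was scaled, and it served to choose the probes. For levels and tests, log2 of the processed intensity of 59305 spots was quantile normalized over the 24 arrays, outlier spots (146 to 644 per array) were dropped and spots of 1 probe averaged, which left 55681 probes. No spot was flagged as saturated. The number of arrays limits the precision.

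Groups came from the labels. The methods call the arrays biological duplicates or triplicates, and p-values measure only the spread between these samples. Each comparison was fitted with limma 3.58.1 in R 4.3.3 on the arrays of its hormone state or cell system, and p-values were adjusted by Benjamini-Hochberg over all probes (threshold 0.05). Fits were tested on simulated data. A probe that no array of a group read as well above background has only a bound there. Symbols came from RefSeq (GRCm38.p6) through accessions (26156 probes) and from the study's supplementary names (445), and 29080 probes had none.

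Genes were named by rule: the 12 with the largest smaller change of the pair, members of fixed lists, the 3 largest rises and falls in each test, and probes next to the thresholds. Further genes and the role groups were chosen after their values were seen. The members and lists were chosen with earlier results of these data known. Alternatives were other normalizations and background corrections, brighter probes, a trended robust prior, the methods' t-test, all 24 arrays with and without slide, a replicate block and leaving out each array.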

Additional observations from a re-analysis of the deposited data

Results flagged for a closer look

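The hormone effect differed between the knockdowns, by the interaction term of the 10-array limma fit, for 40 of the 165 members. Krt15 (3.33), Pgm5 (2.91) and Cyp2f2 (1.98) had the larger effect in siPINC1/6 cells, in log2 units, and were above background on all arrays of this comparison. Klk1b4 (-2.96), Klk1b26 (-2.33) and Klk1b5 (-1.91) had the smaller one. No -LH array read these kallikreins as above background, so their fitted differences are not exact sizes and have no rank. On the +LH arrays alone they differed by -1.46, -1.75 and -1.70.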

How the results depend on the processing

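With slide as a term, 160 members rose with hormones in each knockdown, and 160 to 165 did under every alternative run. The other counts moved with the setting, and the cause was not tested beyond the number of arrays or probes each setting leaves. For the difference in hormone effect (40), the 75th percentile normalization gave 19 and the deposited matrix values 14. For siPINC1/6 against siPINC without hormones (4), the count was 0 with the 75th percentile, the matrix values and the methods' t-test, 55 with normexp, 56 among bright probes, 51 with a trended robust prior, and 82 and 78 on all 24 arrays without and with slide. With hormones (48) it was 23, 25, 80 among bright probes, 75 with the trended prior and 2 by the t-test. For siPINC1/6 against siNegative without hormones (41) it was 14, 16, 73, 62 and 0, and 87 and 88 on all 24 arrays. With hormones (75) the t-test gave 34. For siPINC against siNegative without hormones (0), normexp gave 14, bright probes 1, the trended prior 5 and all 24 arrays 38 and 36. With hormones (19) it was 2, 5, 43, 39 and 1. For LeGO-DCR against LeGO-GFP, normexp gave 1.

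Leaving out each array in turn gave 19 to 37, 0 to 4, 20 to 41, 0 to 5, 0 to 1 and 2 to 12 in the order of these comparisons, leaving aside siPINC1/6 against siNegative with hormones (53 to 69) and LeGO-DCR (0). An arm left with 1 array was assumed to vary like the other groups.

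The number of members was 265 on the quantile normalized signal, of which 164 were among the 165, 256 with the 75th percentile, 95 with normexp, 358 at a threshold of 1.5 and 46 at 3, and 161 to 174 without any 1 array. Over all alternatives, the values of single named members kept their call in 467 cases, lost it in 178 and reversed in 0.

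The deviations of same-numbered arrays correlated from -0.44 to 0.24 over 21257 probes and in no comparison of 3 pairs above 0.1 for every pair, so the numbers were not taken to pair the samples. With a replicate block, 10 members passed for the difference in hormone effect, 46 for siPINC1/6 against siNegative with hormones and 0 for the comparisons of both knockdowns with and without hormones, for siPINC1/6 against siNegative without hormones and for siPINC against siNegative with hormones. The number of arrays, 2 or 3 in a group, limits what could be called.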
